A study of Mus musculus with 8 samples.

Results

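This account covers 10 genes that regulate oxidative metabolism: the PGC-1 coactivator genes Ppargc1a and Ppargc1b, the estrogen-related receptor (ERR) genes Esrra, Esrrb and Esrrg, the PPAR receptor genes Ppara, Ppard and Pparg, and the factor genes Nrf1 and Tfam. They were taken by symbol from a table of RNA-seq counts, as 10 of 53921 rows that name a gene. The cells were mouse induced cardiomyocytes, which are fibroblasts pushed towards a heart muscle identity by transcription factors. Every sample had been given MGT, in this field Mef2c, Gata4 and Tbx5, and was collected on day 5. Cells labelled MGT+shNT carried the hairpin RNA read here as the control, and cells labelled MGT+shGrhl3 carried a hairpin against the transcription factor gene Grhl3. The design text says that the hairpins came in lentivirus. Each arm had 2 RNA-seq libraries, and the 4 CUT&Tag samples of the series were not analysed here. Whether the 2 libraries of an arm were separate cultures is not in the labels, and the p-values therefore weigh differences only against the spread of these 4 libraries, which may be technical.

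PGC-1 proteins do not bind DNA themselves. They are recruited by nuclear receptors, among them the ERRs and PPARs, and by the nuclear respiratory factor NRF-1, and they bring in enzymes that open chromatin and start transcription. ERRs act without a known natural hormone and switch on genes of the respiratory chain and the citric acid cycle, PPARs are switched on by fatty acids and act on genes of lipid use, and TFAM packages mitochondrial DNA and starts its transcription. In the heart this network is known for raising mitochondrial capacity as the muscle matures.

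Library totals ran from 16104243 to 19823397 counts. Grhl3 had 31 and 14 counts in shNT and 11 and 19 in shGrhl3 libraries, values that overlapped and did not pass edgeR's quasi-likelihood test (adjusted p = 0.311, log2 fold change -0.72 with an SE of 0.53). The table names the shGrhl3 columns shGrhl1 and shGrhl2, which were read as replicates because the labels name no other target. If the names instead mean Grhl1 and Grhl2 hairpins, the columns hold different knockdowns and not replicates. Of all 15324 genes tested, 35.3% differed between the arms at an adjusted p of 0.05, 17.2% being higher and 18.1% lower in shGrhl3 cells, with a median log2 fold change of -0.01. Markers of cardiomyocytes summed to 4911 and 4923 CPM (counts scaled to a common library size after TMM normalization) in shNT and to 6161 and 6010 CPM in shGrhl3. Those of cardiac fibroblasts summed to 9050 and 9367 against 10239 and 11076 CPM, although 8 of 12 fell and 2 rose. The 18 macrophage and leukocyte markers summed to 676 and 930 CPM in shNT and 157 and 125 CPM in shGrhl3, with 10 of 12 tested lower and 1, Csf1r, higher. In bulk RNA, fewer cells of a type and less RNA per cell cannot be told apart.

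Among the regulators, 5 of the 9 that could be tested were higher in shGrhl3 cells and 0 were lower, beside 17.2% and 18.1% of all genes tested. Both PGC-1 genes, Esrra, Esrrg and Pparg rose, between 1.45-fold and 4.10-fold, whereas Ppara, Ppard, Nrf1 and Tfam did not pass. Esrrb was too low to test. The median log2 fold change of the 9 was 0.54. In 7 of the 9, Ppard and Tfam included, both shGrhl3 libraries lay above both shNT libraries, a pattern seen in 32.8% of all genes tested, and the reverse, seen in 33.7% of them, held for 0. Beside these rises, 6 of the 12 cardiomyocyte markers rose and 1 fell, none was at 0, and their summed level was higher as given above. The largest part of that sum was Tnnt2, at means of 3214 CPM in shNT and 3208 CPM in shGrhl3, which did not pass. The 6 rose between 1.64-fold for Myl7 and 12.2-fold for Myh6, and Nppa fell 1.53-fold. The part of these markers in the result was not tested. The 5 calls were each kept in all 16 other ways of scaling, filtering, testing or leaving out a library.

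**Figure D1:**
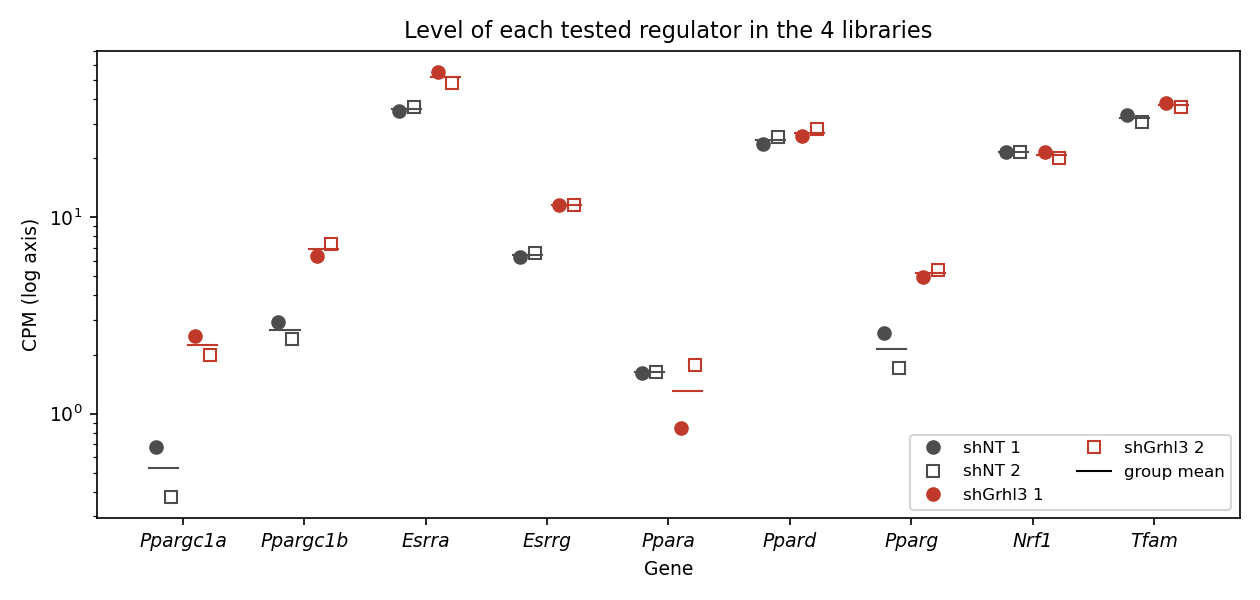
Level of each of the 9 tested regulators in CPM on a log axis, with 1 point per library and a line at each group's mean of 2 libraries. Both shGrhl3 libraries lie above both shNT libraries for 7 genes, and the groups overlap for Ppara and Nrf1. CPM are not corrected for transcript length, so heights can be compared within a gene and not between genes.

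Ppargc1a encodes PGC-1alpha, the inducible member of its family and the best known driver of mitochondrial biogenesis. Counts of Ppargc1a were 13 and 6 in shNT and 50 and 37 in shGrhl3. These counts correspond to 0.679 and 0.378 CPM in shNT and to 2.49 and 1.98 CPM in shGrhl3. The arms did not overlap, yet the gene stayed low in both, below 85.7% of the genes tested in mean log2 CPM, which is not corrected for length. Its mean rose from 0.529 ± 0.213 to 2.24 ± 0.363 CPM (SD, n = 2), a 4.10-fold increase with a 95% interval of 1.02 to 3.05 on the log2 scale (a log2 fold change of 2.04 with an SE of 0.49, adjusted p = 0.00216, edgeR). That log2 fold change was higher than those of 99.2% of the genes tested. It ranged from 1.72 to 2.55 over the alternatives.

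The 250 bases upstream of the RefSeq start of Ppargc1a are shown because this gene had the highest fold change of the 9 and because its promoter is a textbook target of cAMP signalling. They lie at chr5:51567726-51567975 on the minus strand (GRCm38.p6, the assembly behind mm10), inside the RefSeq gene span of 51454249 to 52115853, and capitals mark a match to the core of the cAMP response element, TGACG, or its reverse complement.
Ppargc1a: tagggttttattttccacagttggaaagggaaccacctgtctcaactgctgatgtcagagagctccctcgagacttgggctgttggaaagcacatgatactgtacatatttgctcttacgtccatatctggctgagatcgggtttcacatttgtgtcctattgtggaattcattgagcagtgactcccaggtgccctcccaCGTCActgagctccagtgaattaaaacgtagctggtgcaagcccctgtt
The match lies 45 to 49 bases upstream of the start, and 17.8% of the 32851 RefSeq windows of this length hold the same letters on either strand. Of the 9 regulators with a window, 3 held this core: Ppargc1a, Ppara, which did not pass, and Esrrb, which was too low to test. Windows were found for 9 of the regulators (16 starts), not for Ppargc1b. The Grainyhead-like site AACCGGTT, the ERR response element TNAAGGTCA, the direct repeat of AGGTCA with 1 base between the copies and the full cAMP element TGACGTCA, each searched on both strands, were in 0 of the 16 windows, and in 0.116%, 1.14%, 0.0335% and 1.55% of all windows. The core TGACG lies within the full cAMP element. A missing match says only that these letters are not in this window.

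Ppargc1b, the gene of the related coactivator PGC-1beta on chromosome 18, moved in the same direction from a higher count. It had 56 and 38 counts (2.93 and 2.39 CPM) in shNT and 128 and 137 counts (6.38 and 7.33 CPM) in shGrhl3. Each shGrhl3 library was more than 2-fold above each shNT library. The mean rose 2.55-fold, from 2.66 ± 0.377 to 6.86 ± 0.672 CPM (SD, n = 2; a log2 fold change of 1.35 with an SE of 0.26, adjusted p = 0.000230). The intervals of the log2 fold changes of both PGC-1 genes overlapped, at 1.02 to 3.05 and 0.82 to 1.88. A microRNA gene inside Ppargc1b, Mir378a, had 0 counts in every library, which does not show that the microRNA itself was absent.

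The remaining family member, Pprc1, which encodes the PGC-1-related coactivator, went the other way. Pprc1 stood at 60.8 and 62.9 CPM in shNT and 42.0 and 41.8 CPM in shGrhl3, again without overlap. It fell by 0.56 on the log2 scale (SE 0.10, adjusted p = 0.000111).

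Esrra and Esrrg, the ERR genes of oxidative tissues, were both higher in shGrhl3 cells. Esrra, on chromosome 19 from 6910977 to 6922048, had 34.8 and 36.5 CPM in shNT and 55.0 and 48.1 CPM in shGrhl3. With 579 to 1103 counts per library it had the narrowest interval of the 5, 0.31 to 0.76 around a log2 fold change of 0.54 (SE 0.11, adjusted p = 0.000448). The annotated end of Esrra overlaps that of Trmt112, a methyltransferase cofactor gene, and no source used here says whether counting used strand. Trmt112 had 245 and 217 counts in shNT and 229 and 215 in shGrhl3, with no rise beside that of Esrra.

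Esrrg, on chromosome 1 from 187608510 to 188214885, encodes ERRgamma, known for maintaining the oxidative program of heart muscle. Its counts were 120 and 104 in shNT and 231 and 216 in shGrhl3, and the libraries of each arm lay close together, at 6.41 ± 0.197 and 11.5 ± 0.0296 CPM (SD, n = 2). An SD of 2 values can be small by chance, so this closeness is no measure of precision. Esrrg rose 1.80-fold (a log2 fold change of 0.85 with an SE of 0.18, adjusted p = 0.000856, edgeR). One of its 4 annotated starts has a match to the MEF2 site (CTA and TAG with 4 free bases between them), shown because MEF2 factors are known activators of muscle genes and Mef2c is among the factors of MGT. It lies 13 to 22 bases upstream of that start, at chr1:187608974-187609003 on the plus strand, with the match in capitals.
Esrrg: taaaactttgCTATTTATAGtctacgcccg
Of all RefSeq windows, 3.20% hold this pattern, and 0 of the other 8 regulators with a window did. Bases 14 to 19 upstream, inside the match, also read as a TATA box (TATAAA) on the opposite strand, a pattern in 12.4% of all windows. Esrrb, the ERR gene of pluripotent cells and early placenta, had 1 count in 1 shNT library and 0 in the other 3. A count of 0 allows up to 3 counts, at most 0.189 CPM in these libraries.

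**Figure D2:**
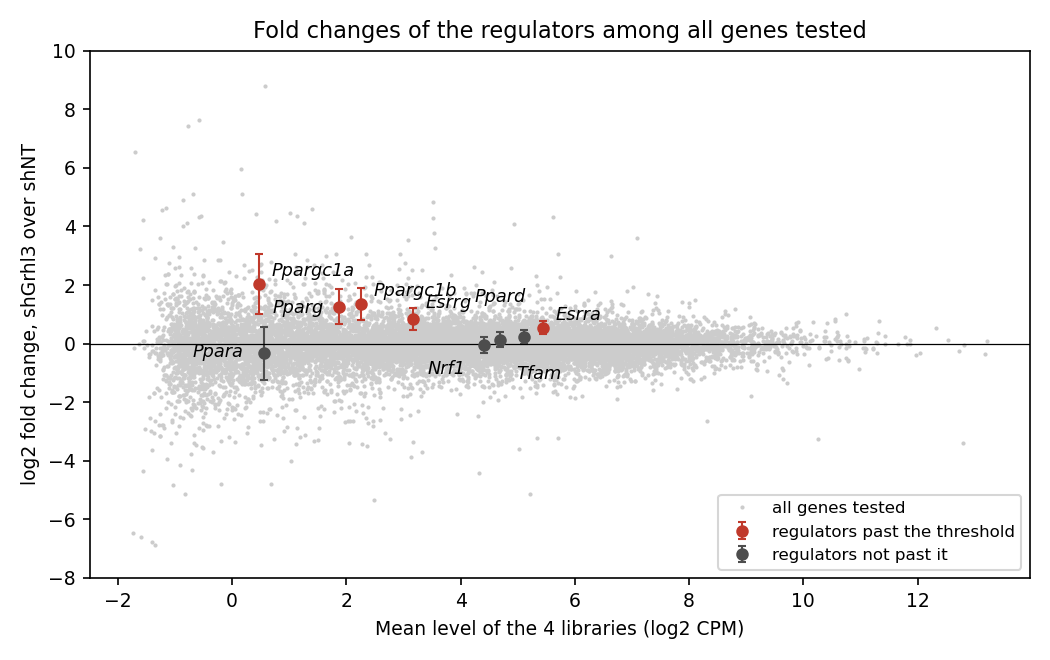
Each point is a gene tested, placed by its mean level (log2 CPM, horizontal) and its log2 fold change of shGrhl3 over shNT (vertical); bars on the 9 regulators are 95% intervals. The 5 red regulators have intervals above 0, with the widest at the lowest level (Ppargc1a) and the narrowest at the highest (Esrra), and the 4 grey ones have intervals that include 0.

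The PPAR receptors did not move together. Pparg, the receptor of fat cell formation that is also found in macrophages (chromosome 6, 115360879 to 115490404), rose. It had 49 and 27 counts in shNT and 100 and 101 in shGrhl3, or 2.56 and 1.70 against 4.99 and 5.41 CPM. The shNT libraries differed from each other more than the shGrhl3 libraries did, but the arms were apart. The rise was 2.39-fold (a log2 fold change of 1.26 with an SE of 0.29, 95% interval 0.65 to 1.86, adjusted p = 0.00161), and its log2 value ran from 1.02 to 1.60 over the alternatives. The macrophage markers summed to less in shGrhl3 libraries, as given above, and their part in the level of Pparg was not tested. Of the 10 fat cell markers, Cidec, Retn and Cfd were at 0 in all 4 libraries, and 8 of the 10 were under 1 CPM. The list summed to 57.3 and 66.8 CPM in shNT and 57.2 and 59.5 CPM in shGrhl3, nearly all of it from the lipases Pnpla2 and Lipe, of which Lipe fell from 15.9 ± 0.921 to 9.85 ± 1.73 CPM (SD, n = 2; adjusted p = 0.00203) and Pnpla2 did not pass.

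Ppara, the receptor of fatty acid burning in heart and liver, had 31 and 26 counts in shNT and 17 and 33 in shGrhl3. Its shGrhl3 libraries lay on either side of the shNT libraries, and no difference was detectable at this depth (log2 fold change -0.33, 95% interval -1.24 to 0.58, adjusted p = 0.603). Without shGrhl3 replicate 1 its log2 fold change was 0.12, so even its direction rested on that library. Ppard, the broadly expressed member, had 450 and 409 counts in shNT and 519 and 526 in shGrhl3, or 23.5 and 25.8 against 25.9 and 28.2 CPM. The arms touched without overlapping, and the interval of the log2 fold change, -0.12 to 0.39, left out changes of the size seen for Pparg (adjusted p = 0.427).

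Short stretches around 2 matches are shown because these sites are typical of the network itself. One Pparg start has the nuclear receptor core AGGTCA 4 to 9 bases upstream (chr6:115362319-115362348, plus strand), and the Ppara start has the NRF-1 site (GCGC and TGCGC with 1 free base between them) 22 to 31 bases upstream (chr15:85735735-85735764, plus strand), each in capitals.
Pparg: ttttatataagggacgcgaggAGGTCAaga
Ppara: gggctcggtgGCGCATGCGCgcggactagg
Another Pparg start also has this core, which is part of the ERR element and of the repeat above. It is found in 14.0% of all windows and the NRF-1 site in 3.74%. Pparg, which rose, was the only regulator with this core in its windows, and Ppara, which did not pass, the only 1 with an NRF-1 site.

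Nrf1 and Tfam, which link the nuclear program to mitochondrial DNA, differed little. Nrf1 had 21.6 and 21.6 CPM in shNT and 21.6 and 20.0 CPM in shGrhl3. Its log2 fold change was -0.05 (95% interval -0.32 to 0.21, adjusted p = 0.785), and it turned to 0.02 without shGrhl3 replicate 2. Tfam had 33.3 and 30.7 CPM in shNT and 38.2 and 36.6 CPM in shGrhl3, arms that did not overlap. The difference did not pass (a log2 fold change of 0.22 with an SE of 0.11, 95% interval -0.01 to 0.45, adjusted p = 0.132), and it passed under none of the 16 alternatives.

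The counts of each family were also split among its members, as shares of the family's counts, which are not corrected for transcript length. The PGC-1 family was taken here as Ppargc1a and Ppargc1b only, with 69 and 44 counts in shNT and 178 and 174 in shGrhl3. Pprc1, left out of this split, had more, 1163 and 999 counts in shNT and 843 and 780 in shGrhl3. Ppargc1a made up 18.8% (95% Wilson interval 11.4 to 29.6) and 13.6% (6.40 to 26.7) of the counts of both PGC-1 genes in shNT, and 28.1% (upper bound 35.1) and 21.3% (15.8 to 27.9) in shGrhl3. Intervals cover counting error only, and those of the arms overlap. Esrrg made up 15.3% and 15.2% of ERR counts in shNT and 17.3% and 19.4% in shGrhl3. Pparg made up 9.25% (7.06 to 12.0) and 5.84% (4.05 to 8.37) of PPAR counts in shNT and 15.7% (13.1 to 18.8) and 15.3% (12.8 to 18.2) in shGrhl3, where the intervals did not overlap. With 2 libraries against 2, the exact two-sided permutation test cannot go below p = 0.333, the value it gave for each of these 3 shares.

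**Figure D3:**
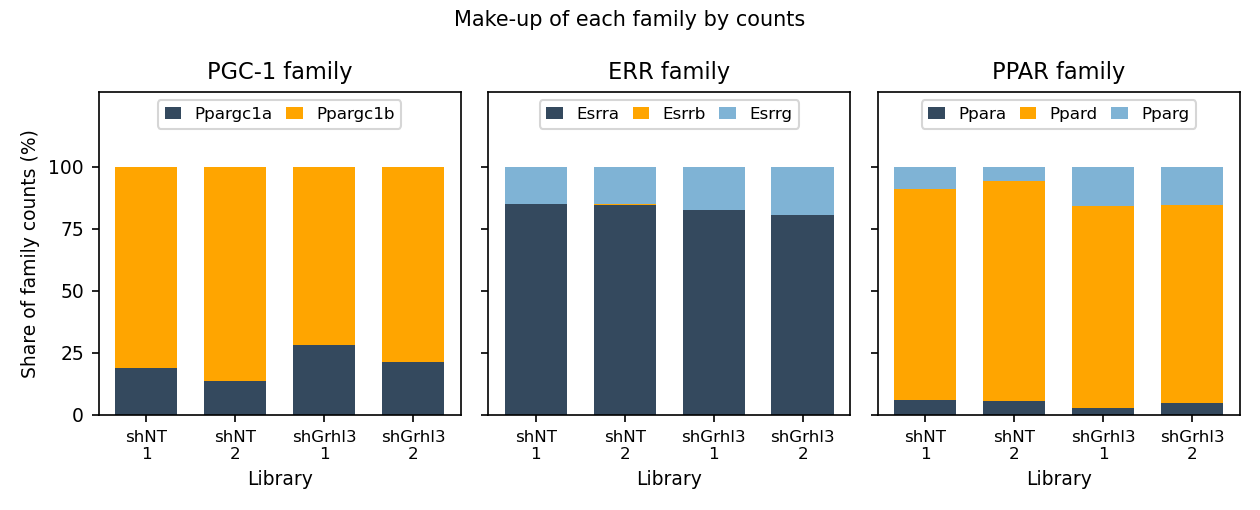
Share of each family's counts (percent, vertical) held by each member in each of the 4 libraries. The PGC-1 family is Ppargc1a and Ppargc1b here, without Pprc1. The Pparg share is larger in both shGrhl3 libraries (15.7% and 15.3%) than in both shNT libraries (9.25% and 5.84%), Esrra holds over 80% of ERR counts in every library, and the single Esrrb count shows as a thin line in shNT 2.

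The 3 genes whose pattern over the 4 libraries was most like that of Ppargc1a, among 8326 genes with a mean of at least 4 on the log2 CPM scale, were Unc45b, Tdrp and Arhgef16. Likeness was the root mean square difference of log2 CPM after centring each gene, 0.208, 0.210 and 0.246. Unc45b, a myosin chaperone of striated muscle, had 9.88 and 8.19 CPM in shNT and 39.6 and 38.9 CPM in shGrhl3. Tdrp went from 16.0 ± 1.45 to 64.9 ± 1.61 CPM (SD, n = 2). Arhgef16 had 187 and 132 counts in shNT and 561 and 523 in shGrhl3. With 4 libraries, likeness says little more than a similar fold change.

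Partners and coregulators of the network showed no common direction. Among the 33 tested, 9 rose (27.3%) and 6 fell (18.2%), beside 17.2% and 18.1% of all genes, while 18 did not pass, with a median log2 fold change of 0.02 beside -0.01 for all genes. Among those that rose were Mybbp1a, a repressor of PGC-1alpha (126 ± 5.05 to 170 ± 6.01 CPM), Fbxw7, a ubiquitin ligase subunit that marks PGC-1alpha for breakdown (32.4 ± 4.35 to 47.5 ± 1.28 CPM), and the stress kinase Mapk14 (129 ± 6.59 to 168 ± 1.43 CPM). Those that fell included, besides Pprc1, the arginine methyltransferase Prmt1 (119 ± 15.3 to 76.3 ± 10.8 CPM), Tbl1x, a subunit of corepressor complexes (174 ± 0.183 to 125 ± 14.1 CPM), and the acetyltransferase Ep300 (109 ± 5.18 to 73.6 ± 16.6 CPM; SD, n = 2 throughout). Activators and repressors were found both among the genes that rose and among those that fell. Its most abundant members, Ncor1 and Fnip1, did not pass (adjusted p = 0.313 and 0.178). Ncor1 changed direction without shGrhl3 replicate 2, where its log2 fold change was -0.02, and Ncor1 and Fnip1 passed as higher without shGrhl3 replicate 1 (adjusted p = 0.00819 and 0.0198). Mapk14 did not pass without shNT replicate 2 (adjusted p = 0.0525).

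Genes of mitochondrial transcription and mitochondrial DNA upkeep mostly did not pass. Of 23 tested, 3 rose and 2 fell, 13.0% and 8.70%, beside 17.2% and 18.1% of all genes. The partner subunits of the nuclear respiratory factor GABP (NRF-2) moved in opposite directions: Gabpa, the DNA-binding subunit, fell from 78.8 ± 2.16 to 43.5 ± 3.92 CPM (SD, n = 2; a log2 fold change of -0.86 with an SE of 0.10, adjusted p = 4.60e-07), and Gabpb1, the activating subunit, rose from 30.9 ± 4.11 to 43.8 ± 2.70 CPM. Lonp1, a matrix protease that degrades TFAM, rose from 86.4 ± 2.89 to 115 ± 0.216 CPM, and Ssbp1, which coats single-stranded mitochondrial DNA, from 26.7 ± 0.483 to 34.7 ± 0.641 CPM. Top1mt, the mitochondrial topoisomerase, fell from 7.50 ± 0.185 to 4.58 ± 1.63 CPM. Yy1, the other of the 2 most abundant members, had 131 ± 6.06 and 122 ± 1.81 CPM and did not pass. Gabpb1 did not pass without shNT replicate 1 (adjusted p = 0.0654), Ssbp1 without either shNT library (0.0612 and 0.0809), and Top1mt in DESeq2 (0.0884), without shNT replicate 1 (0.0809) or without shGrhl3 replicate 2 (0.313). Of the list, 1 rose without shNT replicate 1 and 2 without shNT replicate 2, and 1 fell in DESeq2, without shNT replicate 1 and without shGrhl3 replicate 2.

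Of the mRNAs that mitochondrial DNA encodes, those that changed were slightly higher in shGrhl3 cells. Of 13 listed, mt-Nd4l and mt-Atp8 were too low to test. Among the 11 tested, 6 rose (54.5%, beside 17.2% of all genes) and 0 fell (18.1% of all genes), while 5 did not pass, with a median log2 fold change of 0.25. The 6 that rose did so by at most 1.30-fold: mt-Nd6, for example, went from 586 ± 44.3 to 755 ± 71.2 CPM, mt-Nd5 from 2219 ± 27.3 to 2878 ± 488 CPM, mt-Nd2 from 1403 ± 1.18 to 1722 ± 97.8 CPM and mt-Nd4 from 1583 ± 109 to 1906 ± 56.7 CPM (SD, n = 2), all subunits of complex I. mt-Co1 was the most abundant, at 9136 and 9261 CPM in shNT and 9755 and 9920 CPM in shGrhl3, and did not pass (adjusted p = 0.314). mt-Cytb, of complex III, rose from 3252 ± 123 to 3798 ± 100 CPM and did not pass with a replicate block (adjusted p = 0.0628) or without either shNT library (0.354 and 0.150). Without shNT replicate 1, mt-Nd6 (adjusted p = 0.0939), mt-Nd2 (0.0952) and mt-Nd4 (0.300) did not pass either, nor did mt-Nd2 without shNT replicate 2 (0.0868). The count fell to 1 without shNT replicate 1 and to 3 without shNT replicate 2. Levels were uneven for transcripts of one small genome: mt-Co3 stood at 4.55 to 5.54 CPM beside at least 9136 CPM for mt-Co1 (neither corrected for length), and no source used here says how reads with several matches were counted. Transcripts of both strands of mitochondrial DNA and reads shared with nuclear copies cannot be separated in these counts.

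Known targets of PPAR receptors changed in both directions. Of 33 listed, 3 were too low to test. Among the 30 tested, 14 rose and 10 fell, while 6 did not pass, against 35.3% of all genes changed in either direction, and the median log2 fold change was 0.24. Txnip, a thioredoxin inhibitor that also restrains glucose uptake, had 278 and 269 CPM in shNT and 599.7 and 642 CPM in shGrhl3, a 2.27-fold rise, and was 1 of the 2 most abundant members. Acaa2, the thiolase of mitochondrial fatty acid oxidation, rose from 90.3 ± 0.204 to 157 ± 0.511 CPM, the thioesterase Acot2 from 4.31 ± 0.0425 to 13.5 ± 1.59 CPM, and Mlycd, which removes malonyl-CoA, from 12.9 ± 0.161 to 19.8 ± 0.472 CPM (SD, n = 2). The falls reached further: Cd36, the fatty acid receptor, went from 59.8 and 85.0 CPM to 2.39 and 1.66 CPM (a log2 fold change of -5.14 with an SE of 0.22, adjusted p = 7.53e-10). Fabp4, a fatty acid binding protein of fat cells and macrophages, had 112 and 145 counts in shNT and 30 and 16 in shGrhl3, a 6.19-fold fall. Beside these falls, 10 of the 12 tested macrophage and leukocyte markers fell, none of the 18 was at 0 in all libraries, and their summed level stood at 676 and 930 against 157 and 125 CPM; their part in the result was not tested.

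Cpt1a, which admits fatty acids to mitochondria, fell from 140 ± 2.38 to 89.5 ± 2.17 CPM, and the peroxide-removing enzyme Cat from 62.2 ± 0.423 to 36.3 ± 2.38 CPM (SD, n = 2). Lpl, the lipase that frees fatty acids from lipoproteins and the other abundant member, had 499.0 and 499.7 CPM in shNT and 402 and 406 CPM in shGrhl3 (log2 fold change -0.31, adjusted p = 0.00360), a call lost without either shNT library (adjusted p = 0.0600 and 0.0638). Without shNT replicate 2, only 8 of the PPAR targets rose.

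In the list of ERR and PGC-1 targets, most of them in the citric acid cycle and respiratory chain, genes were higher where they changed. The list also holds other mitochondrial genes, such as Sod2, Mfn2 and Vdac1. Other genes under ERR or PGC-1 control stand in other lists, among them Perm1 and Pdk4, which fell, as given below. The counts therefore hold for this list and depend on how genes were assigned. Of 42 listed, Ckmt2 was too low to test. Among the 41 tested, 22 rose and 0 fell, while 19 did not pass, or 53.7% higher beside 17.2% of all genes, with a median log2 fold change of 0.24. In 31 of the 41, both shGrhl3 libraries lay above both shNT libraries, and the reverse was seen in 0, beside 32.8% and 33.7% of all genes tested. Atp5b, the catalytic subunit of ATP synthase and the most abundant member, had 747 and 744 CPM in shNT and 1095 and 1038 CPM in shGrhl3, a 1.43-fold rise (a log2 fold change of 0.52 with an SE of 0.08, adjusted p = 1.14e-05). Atp5a1 of the same enzyme rose from 493 ± 6.39 to 629 ± 31.4 CPM. Ndufb5 of complex I rose from 52.4 ± 3.66 to 80.4 ± 10.8 CPM and Uqcrfs1, the iron-sulfur subunit of complex III, from 79.1 ± 2.12 to 111 ± 0.361 CPM (SD, n = 2). The highest fold change of the list, 4.45-fold, was that of Cox6a2, a heart and skeletal muscle form of a complex IV subunit chosen after its values were seen, at 14 and 11 counts in shNT and 67 and 57 in shGrhl3. As for the regulators, the cardiomyocyte markers were higher beside this list (6 of 12 rose), and their part in the result was not tested. Leaving out shNT replicate 1 left 12 that rose, and leaving out shNT replicate 2 left 13.

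**Figure D4:**
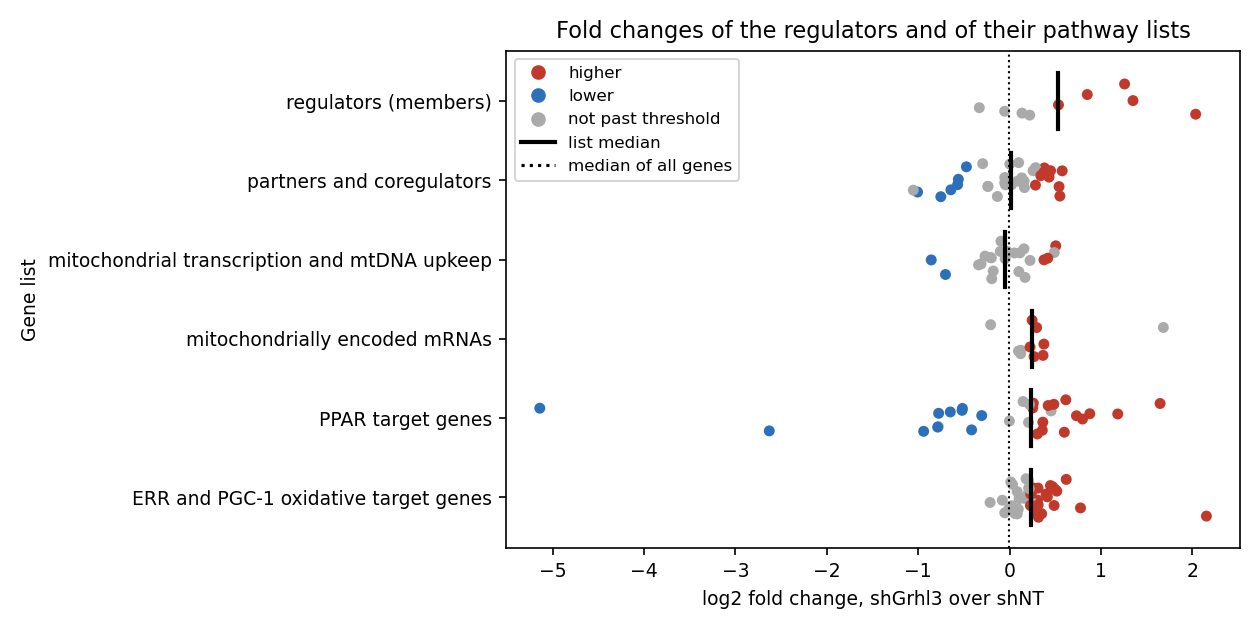
Log2 fold change of shGrhl3 over shNT (horizontal) for each tested gene of the regulators and 5 pathway lists (vertical), coloured by call, with each list's median as a bar and the median of all genes tested as a dotted line. The list of ERR and PGC-1 targets has 22 genes called higher and 0 lower, while PPAR targets spread to both sides, with Cd36 farthest left. Perm1 and Pdk4, which fell, are drawn among the partners and the PPAR targets.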

How the data were processed

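The authors deposited raw counts per gene (whole numbers, no normalization found) for 4 RNA-seq libraries. Tools named per the submitters' processing notes, without their roles, are HISAT2 2.0.1 and Bowtie2 2.2.6, cutadapt 1.9.1, ChIPseeker and MACS2, on the mm10 build. The sources used here do not give the counting program, its annotation, or how strand and multi-mapped reads were treated. The columns named shGrhl1 and shGrhl2 were read as replicates of shGrhl3, the only target the labels name, although the names could also mean hairpins against Grhl1 and Grhl2. The 1438 rows that name no gene (up to 0.00872% of counts) were left out.

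Genes were filtered with filterByExpr (minimum count 10), scaled by TMM and tested in edgeR 4.0.16 (R 4.3.3) with a robust quasi-likelihood fit, two-sided, without covariate, with Benjamini-Hochberg adjustment over 15324 genes. The SE was derived from the F statistic. The fit was tried on simulated counts with the same dispersion for every gene. That setting was not matched to the spread of these libraries, so it does not show how the fit performs on them. DESeq2 1.42.0 and limma 3.58.1 (voom) were alternatives. Libraries of an arm differed beyond sampling noise (chi-square per degree of freedom 15.2 and 9.18). Replicate numbers were not used to pair the libraries in the main fit, because no source used here gives a pairing. Deviations of same-numbered libraries were nearly unrelated across genes (r = -0.0605), which does not show that the libraries were unpaired. Of each pathway list, up to 4 genes per direction past the threshold were named by lowest p, and so were the 2 most abundant; a few of these genes are not reported here. Members and lists were chosen with earlier results of these data known. Their shares are therefore set beside those of all genes as description only. Promoters are from RefSeq (GRCm38.p6), using the 250 bases before each start. No transcript lengths were used, so any order of genes by level, such as the most abundant of a list, is by CPM uncorrected for length.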

Additional observations from a re-analysis of the deposited data

How the results depend on the processing

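The 5 rising regulators passed under all 16 alternatives, and 0 fell in any. Over all genes, 1761 to 2630 rose and 2074 to 2560 fell with 1 library left out. Fits with a library left out take the lone sample to vary like the other group. Among the lists, mitochondrial DNA upkeep had 1 to 3 higher and 1 to 2 lower with a library left out, and 1 lower in DESeq2. Mitochondrial mRNAs had 1 to 6 higher, PPAR targets 8 to 13 and ERR and PGC-1 targets 12 to 24 higher. The cause was not tested. With a library left out, log2 fold changes ran from -0.92 to 0.12 for Ppara, from -0.112 to 0.0203 for Nrf1 and from -0.0240 to 0.293 for Ncor1, reversing Ppara without shGrhl3 replicate 1 and the other two without shGrhl3 replicate 2. With a replicate block, 2434 genes rose and 2608 fell, and 5 regulators rose. Of the named genes only mt-Cytb, at a log2 fold change of 0.22, lost its call there. Over the whole lists, the block left 16 ERR and PGC-1 targets, 13 PPAR targets, 8 partners and 5 mitochondrial mRNAs higher. Same-numbered libraries did not deviate together (r = -0.0605 across genes). The older quasi-likelihood method of edgeR, added after the data were seen, called 2625 genes higher and 2743 lower. Family shares per length could not be made. Ppargc1a and Ppara, with under 60 counts per library, are limited by depth.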

Other observations

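Some partners and targets of the network outside the naming rule, chosen after their values were seen, moved in the other direction from the PGC-1 genes, and some in the same. Perm1, a muscle gene that PGC-1 and ERRs are known to induce, had 62 and 33 counts in shNT and 27 and 25 in shGrhl3, and fell by 1.01 on the log2 scale (SE 0.38, adjusted p = 0.0424, edgeR). That call was lost in DESeq2 (0.146), in limma (0.0719), without a low-count filter (0.0570), with the older quasi-likelihood method (0.0569), and without shNT replicate 1 (0.440), shGrhl3 replicate 1 (0.0991) or shGrhl3 replicate 2 (0.105). Klf15, a factor of cardiac lipid use, fell from 7.82 ± 1.59 to 4.58 ± 0.793 CPM (SD, n = 2; adjusted p = 0.0133), a call lost without shNT replicate 2 (0.169) or shGrhl3 replicate 2 (0.101). Pdk4, a kinase that holds back pyruvate oxidation and a common readout of PPAR and ERR activity, fell from 20.3 ± 1.94 to 11.7 ± 0.217 CPM (adjusted p = 0.000179). Rxra, the shared partner of PPAR receptors, rose from 72.5 ± 5.78 to 94.3 ± 7.38 CPM (adjusted p = 0.00363), but not past the threshold without shNT replicate 1 (0.105). Rxrb did not pass (0.0767), except as higher without shNT replicate 2 (0.0301). Prkaa2, a catalytic subunit of the energy sensor AMPK, rose from 42.2 ± 5.47 to 61.7 ± 14.1 CPM (adjusted p = 0.0105), and the other, Prkaa1, stood at 77.3 ± 1.62 and 86.4 ± 6.40 CPM (adjusted p = 0.202).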
